A study of Homo sapiens with 1 sample.

Results

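Among 12239 filtered single cells of 1 library, 979 cells with the highest expression of a small set of genes that includes C1orf61 and EPHA3 were described against the other 11260 cells. H9, the established human embryonic stem cell (hESC) line used, had the genotype WT, that is, the human sequence of the enhancer HAR123 (hHAR123), and was taken through differentiation into neural progenitor cells (NPCs). Differentiation used dorsomorphin and SB431542, which block BMP and TGF-β signalling, first on attached colonies, then on rotating embryoid bodies, which were afterwards replated on Matrigel. According to the study's methods, cells of independent clones of the genotype were mixed and captured before neural rosettes were selected, so clones could not be compared. Members and other cells shared the line, the genotype, the treatment and the library. With a single library nothing was replicated, and the comparison is descriptive, without tests or p-values.

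A cell was kept with 2000 to 10000 detected genes, with 1 to 10% of its unique molecular identifiers (UMIs, each standing for 1 captured RNA molecule) from mitochondrial genes, and with fewer than 5 UMIs per 10000 from ANXA1, TFPI2 and CTGF together. These 3 genes marked a contractile, non-neural population of 1497 barcodes, which was left out. The members were the 8% of kept cells with the highest sum of C1orf61, EPHA3, VEPH1, PCDH19 and KCNQ3 UMIs per 10000 UMIs of the cell. The members held a median of 14562 UMIs and the other kept cells a median of 17241 UMIs, so the members were the shallower cells. Levels below are CPM, the UMIs of a gene per 1000000 UMIs summed over the cells of a group, and each ratio divides the members' level by the level in the other kept cells. The 95% intervals in parentheses cover counting error only.

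Radial glia are the stem cells of the developing brain. They span the wall of the neural tube from the ventricle to the outer surface, arise from neuroepithelial cells, and give rise to neurons and later to glia. Notch signals from neighbouring cells keep them undifferentiated through transcription factors of the HES family, while graded transcription factors such as EMX2, LHX2 and SIX3 tell them which part of the forebrain they belong to.

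The values that chose the members are a description and support nothing else. The lowest member had a sum of 7.49013 UMIs per 10000 and the nearest cell outside had 7.48895, so the limit did not fall in a gap. The median member had 10.4, the highest had 37.5, the median other cell had 0.782, and 29.4% of the other cells had none of these UMIs. C1orf61 stood at 130 CPM in the members and 8.31 CPM in the other cells. EPHA3, a receptor tyrosine kinase for ephrin-A ligands, stood at 197 against 9.09 CPM. VEPH1, which encodes a protein with a pleckstrin homology domain, stood at 209 against 26.0 CPM. The adhesion molecule PCDH19 and the potassium channel subunit KCNQ3 stood at 180 against 28.2 CPM and at 421 against 61 CPM. KCNQ3 made up 37.0% of the members' summed UMIs and was the largest of the 5 genes in 474 members, so the sum weighed it more than C1orf61 or EPHA3. UMIs of all 5 genes were found in 349 members, of 4 in 354, of 3 in 194, of 2 in 73 and of 1 in 9. The genes lie apart in the genome (GRCh38, GENCODE v44): C1orf61 at chr1:156404250-156456763 on the minus strand, EPHA3 at chr3:89107621-89482134 on the plus strand, VEPH1 at chr3:157259742-157533619 on the minus strand and PCDH19 at chrX:100291644-100410273 on the minus strand.

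**Figure D1:**
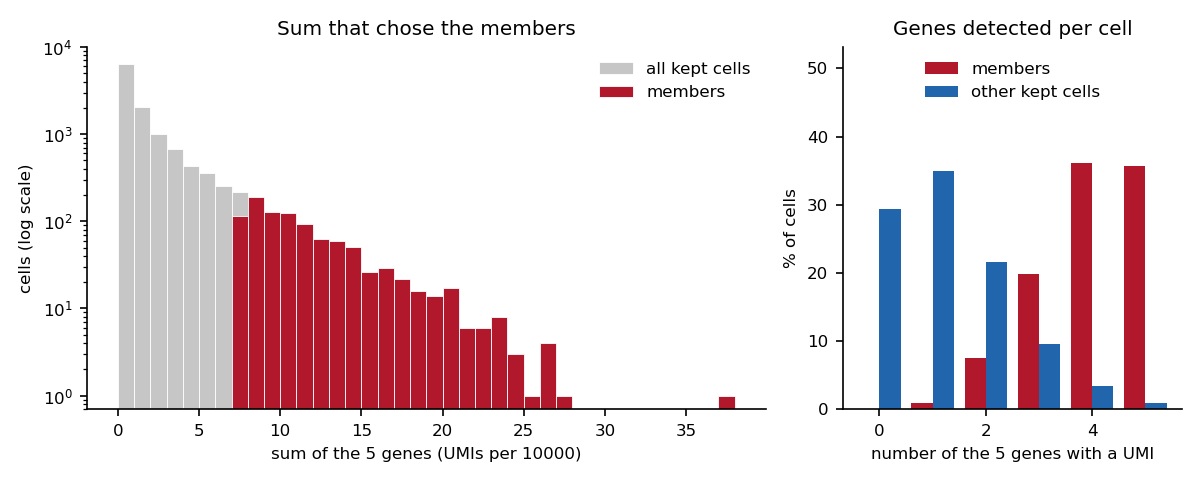
Left, number of kept cells (log axis) by the summed UMIs of the 5 genes per 10000 UMIs of the cell, for all kept cells (grey) with the 979 members in front (red). Right, percent of cells of each group by how many of the 5 genes had a UMI. The distribution runs through the limit at 7.49 without a gap.

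C1orf61 is the host gene of a microRNA of the nervous system, and the data held the hosts of all 3 copies of it. The current annotation names C1orf61 MIR9-1HG, a long non-coding RNA (lncRNA). The hairpin MIR9-1 lies inside it at chr1:156420341-156420429, MIR9-2 lies inside LINC00461 at chr5:88666853-88666939, and MIR9-3 lies inside MIR9-3HG at chr15:89368017-89368106, each on its host's strand. The hairpin overlaps an exon in 2 of the 95 annotated transcripts of C1orf61, in 15 of 45 of LINC00461 and in 3 of 54 of MIR9-3HG, and is intronic or outside in the others. All 3 loci encode the same mature strands (RefSeq, GRCh38.p14, 5′ to 3′, the seed at bases 2 to 8 in capitals). They are shown here because all 3 hosts were higher in the members as a group, C1orf61 by the choice of cells.
hsa-miR-9-5p: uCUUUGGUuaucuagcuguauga
hsa-miR-9-3p: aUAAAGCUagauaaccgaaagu

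LINC00461 was not used to choose the members and had the highest ratio of all genes read. It reached the limit of 1000 UMIs only through the members, who held 594 of its 1040 UMIs, so its rank is a description. It stood at 36.7 CPM in the members and 2.02 CPM in the other cells, a ratio of 18.1 (16 to 20.6). MIR9-3HG, picked out after its values were seen and below the limit of 1000 UMIs for reading a gene, stood at 5.62 against 0.272 CPM, a ratio of 20.7 (14.8 to 29.1). C1orf61 was high in the members by the choice of cells, and its ratio was 9.74 when members were chosen on the other 4 genes. The mature microRNA has no poly(A) tail and was not measured in these 3′ libraries.

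LINC00461 was low in most members all the same. A LINC00461 UMI was found in 27.4% of the members, 1.94% of the other kept cells and 2.94% of the excluded contractile barcodes, whose median depth was 48483 UMIs. With every cell thinned to 5000 UMIs these shares became 13.0%, 0.809% and 0.267%. Both C1orf61 and LINC00461 were found in 22.9% of the members (20.3 to 25.6%) and in 1.15% of the others (0.965 to 1.37%). The 300 members without a C1orf61 UMI had 15 CPM of LINC00461 (11.7 to 19), close to the 15 CPM of the 1018 other cells with a C1orf61 UMI and above the 0.736 CPM of the 10242 other cells without one. When members were chosen without C1orf61 in the sum, the LINC00461 ratio was 12.3, and it was 3.53 when the other cells were weighted to the members' spread over clusters.

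Across the transcriptome, 760 of the 12253 genes with at least 1000 UMIs in the kept cells were at least 1.5-fold higher in the members (6.2%) and 628 were at least 1.5-fold lower (5.13%). The sum that chose the cells belongs to the same contrast, so these shares are a background and not a result. The median ratio over all genes read was 1.00. Without any scaling for depth (UMIs per cell) every ratio dropped by 0.24 on the log2 scale, and 362 genes were higher and 1701 lower. Only ratios past 1.5 in either direction are called higher or lower below.

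The Notch pathway separated the members within a single gene family: HES5 and HES4 were higher and HES1 was lower. HES5, a transcriptional repressor that keeps neural progenitors from differentiating, was found in the members at 576 CPM and in the others at 153 CPM, a ratio of 3.77 (3.68 to 3.85). HES4, a relative that mice lack, stood at 220 against 99.1 CPM (ratio 2.22, 2.14 to 2.30). HES1, which represses neuronal differentiation in the same way as HES5, stood at 40.3 against 116 CPM and was 2.88-fold lower (2.67 to 3.12). NRARP, a feedback inhibitor of the Notch transcription complex, had a ratio of 2.15 (1.90 to 2.42). HEY1 stood at 9.26 against 2.47 CPM and was below the limit for reading. Of the 7 targets listed, 4 could be read, with 3 higher, 1 lower and a median ratio of 2.19.

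The groups also differed in their HES5 and HES1 values per cell. Members had a median of 5.09 HES5 UMIs per 10000 (2.41 and 8.52 at the 25th and 75th percentiles, highest 29.1), and the other cells a median of 0.517 (0 and 2.06, highest 29.2). The groups overlapped, but 89.2% of the other cells lay below the median member. A HES5 UMI was found in 91.2% of the members, 56.0% of the others and 18.4% of the contractile barcodes, and in 81.9%, 34.9% and 3.94% after thinning. A HES1 UMI was found in 40.04%, 75.4% and 81.9%, and in 17.4%, 40.4% and 31.7% after thinning. A HES5 UMI without a HES1 UMI was found in 53.9% of the members and 15.1% of the others. A HES1 UMI without a HES5 UMI was found in 2.76% of the members and 34.4% of the others. Both were found in 37.3% and 41.0%, which did not set the groups apart to the same degree. These joint shares were read at unequal depth, and a missing UMI does not show that the RNA was absent. They also depend on how often each gene was found alone. Whether HES5 and HES1 avoid each other within single cells was not tested.

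The 2 genes that moved in opposite directions both carry the core motif of RBPJ, the DNA-binding partner of Notch, just upstream of their start. The 250 bases before each start are shown because they are the classical Notch-responsive stretch (RefSeq, GRCh38.p14, read along the gene's strand, with TGGGAA or its reverse complement TTCCCA in capitals), HES5 from chr1:2530264-2530513 on the minus strand and HES1 from chr3:194135898-194136147 on the plus strand.
HES5: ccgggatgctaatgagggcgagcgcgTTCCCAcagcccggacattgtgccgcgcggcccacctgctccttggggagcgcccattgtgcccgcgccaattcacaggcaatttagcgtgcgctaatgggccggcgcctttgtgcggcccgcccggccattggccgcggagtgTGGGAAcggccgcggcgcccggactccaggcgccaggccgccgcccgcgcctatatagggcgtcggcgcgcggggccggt
HES1: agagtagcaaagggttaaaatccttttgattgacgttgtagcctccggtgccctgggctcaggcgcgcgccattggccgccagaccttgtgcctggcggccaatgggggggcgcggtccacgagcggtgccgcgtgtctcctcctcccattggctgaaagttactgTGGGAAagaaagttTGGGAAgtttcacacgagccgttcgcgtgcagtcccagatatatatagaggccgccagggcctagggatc

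HES1 held 2 matches, at 84 to 79 and 70 to 65 bases before the start, and HES5 held 2, at 224 to 219 bases on the opposite strand and at 80 to 75 bases. HES4 held 1 match at 76 to 71 bases, HEYL 2, HEY2 1, and NRARP none. Of 27305 upstream stretches of the same length, 21.1% held at least 1 match on either strand and 2.92% held at least 2. A match is a description of the letters and not of binding.

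The ligands and receptors moved less than the targets. The ligand DLL1 stood at 53.2 against 28.2 CPM (ratio 1.88, 1.75 to 2.02), but its ratio was 0.974 when the other cells were weighted to the members' spread over clusters. JAG1 stood at 71.4 against 42.4 CPM (1.69, 1.58 to 1.79). LFNG, a glycosyltransferase that changes which ligands a Notch receptor answers to, stood at 43.5 against 23.9 CPM (1.82, 1.68 to 1.97). NOTCH1 and RBPJ themselves had ratios of 1.26 and 1.11. Over the lists, 2 of 3 ligands and 2 of 18 receptors and machinery genes read were higher (medians 1.69 and 1.09), and none was lower.

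Contractile genes moved with these results. All 12 contractile cell genes read were lower in the members, with a median ratio of 0.280. The list summed to 676 CPM in the members and 1932 CPM in the others, although barcodes high in ANXA1, TFPI2 and CTGF had been removed. TAGLN, which encodes an actin-binding protein of smooth muscle, stood at 39.1 against 464 CPM and was 11.9-fold lower. In cells with no UMI of TAGLN, ACTA2, MYL9 or CNN1 (548 members and 3704 others), the HES5 ratio was 2.36 and the numbers of genes higher and lower were 510 and 440 (4.16% and 3.59% of the genes read). In the same cells NRARP and DLL1 fell under the limit with ratios of 1.46 and 1.49, which left 2 of 4 Notch targets and 1 of 3 ligands higher. With the other cells weighted to the members' spread over clusters, the HES5 ratio was 1.71. In that setting EMX2, FABP7 and OTX2 had ratios of 1.39, 1.27 and 1.3, under the limit, while HES4, ID4, SOX9 and NR2F1 had ratios of 1.53, 1.75, 1.53 and 1.88.

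**Figure D2:**
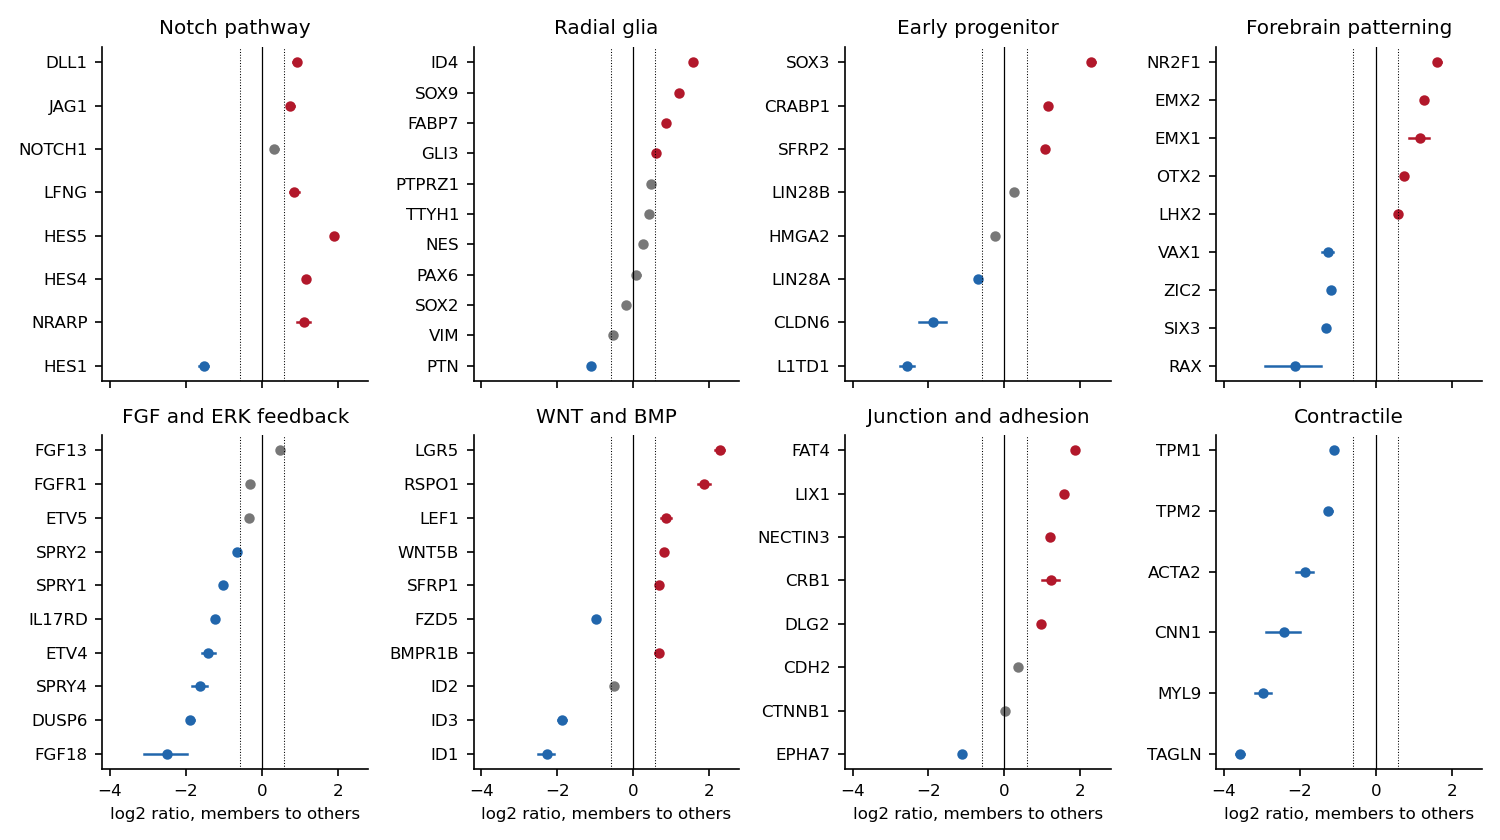
Log2 ratio of the members' CPM to that of the other kept cells for named genes in 8 groups, with the 95% counting interval as a line. Red points are at least 1.5-fold higher, blue points at least 1.5-fold lower, grey points between, and dotted lines mark 1.5-fold. HES5 and HES1 lie on opposite sides, and every contractile gene plotted lies to the left.

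Part of the radial glia marker list was higher in the members. Of 30 genes listed, 25 could be read, 8 were higher, 2 were lower, and the median ratio was 1.33. The 8 include HES5, which was already among the markers by which these cells were named, and the 2 were HES1 and PTN. A FABP7 UMI was found in 98.1% of the members and 96.8% of the others, and a GLI3 UMI in 98.7% and 98.6%. ID4, an inhibitor of basic helix-loop-helix factors, stood at 288 against 96.1 CPM (ratio 3.00, 2.90 to 3.09). SOX9, a factor of neural stem cells and of glial competence, stood at 156 against 67.7 CPM (2.30, 2.21 to 2.40). FABP7, the brain fatty acid-binding protein of radial glia, stood at 836 against 461 CPM (1.82, 1.78 to 1.85). LIFR, the LIF receptor, and SLC1A2, a glutamate transporter, had ratios of 2.07 and 2.03 at levels of 14.0 and 25.9 CPM in the members. The hedgehog effector GLI3 (621 against 408 CPM, ratio 1.52) lay near the limit and passed it in 12 of 22 alternative settings.

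General progenitor genes did not set the members apart. SOX2 stood at 365 against 416 CPM and PAX6 at 57.9 against 54.6 CPM (ratio 1.06, 0.99 to 1.13). The intermediate filament genes NES and VIM stood at 283 against 235 CPM and at 636 against 920 CPM. In the excluded contractile barcodes VIM stood at 4283 CPM and NES at 670 CPM, so neither is particular to neural progenitors here. PTN, a secreted growth factor of radial glia, was 2.17-fold lower (409 against 888 CPM, interval 2.12 to 2.23). Genes that mark mature outer radial glia or astrocytes were barely detected: HOPX stood at 0.247 CPM, GFAP at 0.185 CPM and AQP4 at 0.185 CPM in the members. Of the 25 radial glia genes read, 15 lay between the limits.

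**Figure D3:**
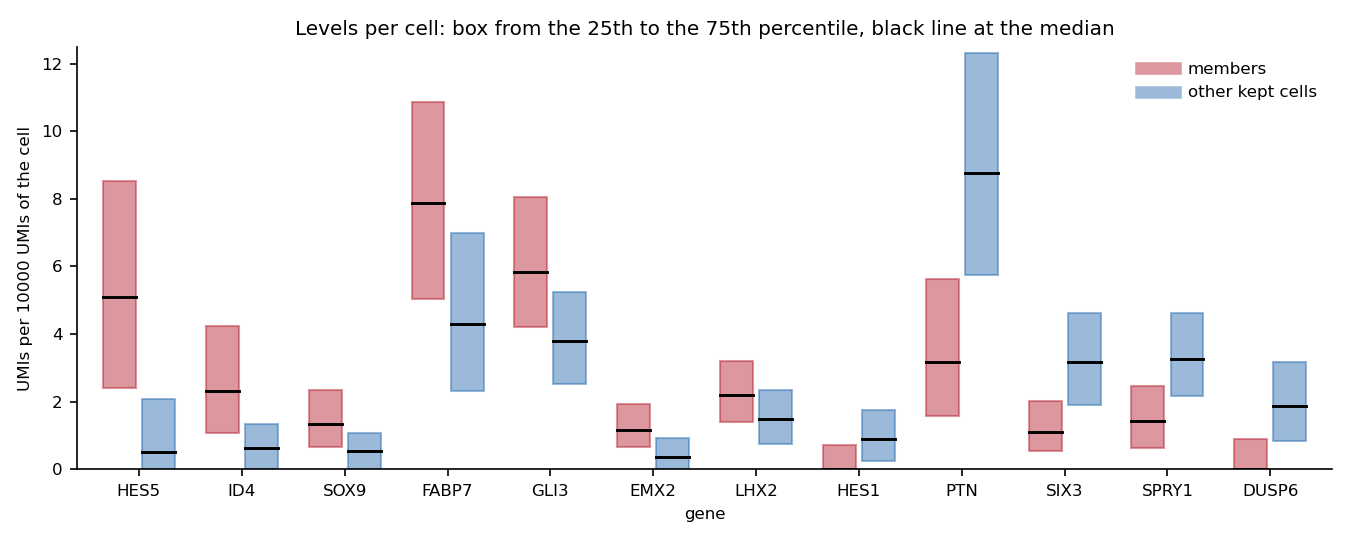
UMIs per 10000 UMIs of the cell for 12 genes in members and in other kept cells, with boxes from the 25th to the 75th percentile and a black line at the median. For HES5 the medians are 5.09 and 0.517, for SIX3 they are 1.11 and 3.16, and the boxes of FABP7 overlap.

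Early progenitor genes changed in both directions. SOX3, an X-linked member of the SOX2 family found in neural precursors, stood at 77.3 against 15.9 CPM (ratio 4.87, 4.56 to 5.20), and SOX1 of the same family stood at 88.0 against 57.8 CPM (1.52, past the limit in 12 of 22 alternatives). The Wnt-binding protein gene SFRP2 and the retinoic acid-binding protein gene CRABP1 had ratios of 2.08 and 2.23. L1TD1, an RNA-binding protein of pluripotent cells, was 5.94-fold lower in the members (15.2 against 90.6 CPM, interval 5.24 to 6.76). LIN28A, which blocks the maturation of let-7 microRNAs, was 1.60-fold lower (150 against 241 CPM), whereas LIN28B had a ratio of 1.2. The tight junction gene CLDN6 was 3.70-fold lower. Of 18 genes read, 4 were higher and 3 lower, and the median was 1.08. POU5F1 and NANOG were at 0.123 and 0.185 CPM in the members.

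Forebrain patterning genes also differed, with EMX2 and NR2F1 higher and SIX3 and ZIC genes lower. EMX2, a homeobox factor graded across the cortical primordium, stood at 135 against 56.2 CPM (ratio 2.41, 2.30 to 2.52). NR2F1, an orphan nuclear receptor with a graded cortical pattern, stood at 75.7 against 24.6 CPM (3.08, 2.89 to 3.27), and its relative NR2F2 had a ratio of 1.69, or 0.955 with no limit on ANXA1, TFPI2 and CTGF. LHX2, a selector of cortical identity, stood at 240 against 159 CPM (1.51) and passed the limit in 12 of 22 alternatives. SIX3, which specifies the anterior forebrain and eye field, stood at 138 against 342 CPM and was 2.48-fold lower (2.37 to 2.58). ZIC2 and ZIC5, zinc finger factors of the early neural tube, were 2.26-fold and 2.39-fold lower. Over the list, 5 of 19 genes read were higher and 3 lower, and the median was 1.12.

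EMX2 and SIX3 UMIs still met in most members. Both were found in 65.9% of the members and 50.6% of the others. EMX2 without SIX3 was found in 16.6% of the members and 2.33% of the others, and SIX3 without EMX2 in 12.8% and 45.7%. After thinning, an EMX2 UMI was found in 46.1% of the members, 23.5% of the others and 1.2% of the contractile barcodes, and a SIX3 UMI in 46.6%, 76.8% and 55.1%. The 8% of kept cells highest in EMX2 included 222 of the 979 members (22.7%) and 757 of the other kept cells (6.72%). Members were thus more often among the cells highest in EMX2, although most members were not.

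Of 10 eye-field genes, 3 could be read, 1 was higher and 2 were lower (median 0.416), and the list summed to 209 CPM in the members and 167 CPM in the others. RAX, the retina and anterior neural fold homeobox gene, was 4.34-fold lower (1.05 against 4.56 CPM, interval 2.70 to 7.48), and the ventral anterior homeobox gene VAX1 was 2.41-fold lower (21.2 against 50.9 CPM). SIX6 had no UMI in the members, which allows up to 0.185 CPM by 3 counts over the group, against 4.06 CPM in the others, so it was at least 21.9-fold lower. OTX2, the higher gene of this list and also needed for forebrain and midbrain, was higher (172 against 102 CPM, ratio 1.69). Of 16 midbrain and hindbrain genes, 2 could be read, PAX8 was 6.70-fold lower, and 7 had no UMI in the members. PAX7, a dorsal neural tube factor among the 15 lowest genes, was 14.1-fold lower (4.44 against 62.6 CPM).

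Of 17 FGF ligand, receptor and feedback genes read, none was higher and 9 were lower, with a median ratio of 0.634. FGF signalling through ERK switches on its own inhibitors, the Sprouty proteins and the phosphatase DUSP6, and anterior FGFs pattern the forebrain. DUSP6 stood at 63.7 against 234 CPM and was 3.68-fold lower (3.46 to 3.92). SPRY1, SPRY2 and SPRY4 were 2.03-fold, 1.58-fold and 3.11-fold lower. ETV4, an ETS factor induced by FGF, and IL17RD, an inhibitor of FGF receptors, were 2.65-fold and 2.36-fold lower. The ligands FGF17, FGF18 and FGF19 were 21.9-fold, 5.68-fold and 43.5-fold lower, from 8.11, 9.47 and 10.7 CPM in the others. In cells without contractile UMIs the FGF18 and FGF19 ratios were 0.411 and 0.0644. In every alternative that kept the limit of 1000 UMIs, 8 to 10 of the 17 genes were lower. With limits of 200 and 5000 UMIs, 9 of 19 and 6 of 13 were lower. In this list 1 gene was higher when EPHA3 was left out of the sum or the limit was 200 UMIs, and 3 were higher with no limit on ANXA1, TFPI2 and CTGF. FGFR2, below the limit for reading, went the other way with 15.3 against 1.59 CPM, a ratio of 9.60 (8.13 to 11.3), whereas FGFR1 had a ratio of 0.81.

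WNT genes changed in both directions. LGR5, a receptor for R-spondins that amplifies WNT signals, stood at 53.6 against 11 CPM (ratio 4.86, 4.49 to 5.25), and its ligand gene RSPO1 stood at 26.1 against 7.12 CPM (3.67, 3.29 to 4.09). The nuclear effector LEF1, the ligand WNT5B and the secreted antagonist SFRP1 had ratios of 1.82, 1.75 and 1.62. The receptor FZD5 was 1.97-fold lower (144 against 284 CPM), and FZD1 and LGR4 were 1.5-fold and 1.52-fold lower. The feedback target AXIN2 had a ratio of 1.38, under the limit. Of 23 genes read, 6 were higher and 3 lower (median 1.27), where 6.2% and 5.13% of all genes read were. With the others weighted over clusters, LEF1, WNT5B, SFRP1, FZD1 and LGR4 lost their calls. In cells without contractile UMIs WNT5B, SFRP1 and FZD1 did.

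ID1 and ID3 were lower while their relative ID4 was higher, and most other BMP and TGF-β genes read lay between the limits. ID1 and ID3, direct targets of BMP signalling, were 4.86-fold (4.22 to 5.63) and 3.66-fold (3.40 to 3.93) lower, and BMP7 and SMAD6 were 1.80-fold and 1.71-fold lower. TGFB2 and the receptor gene BMPR1B had ratios of 2.12 and 1.59. In cells without contractile UMIs the SMAD6, BMP7 and ID1 ratios were 1.18, 0.712 and 0.362, and the TGFB2 ratio was 0.277 with no limit on ANXA1, TFPI2 and CTGF. The list had 13 genes read, 2 higher and 4 lower, and a median of 0.885. Among 7 hedgehog genes read, GAS1, a co-receptor, was higher (ratio 2.17) and none was lower (median 1.23).

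Adhesion genes beside PCDH19 included several of the apical junction. FAT4, a giant cadherin of the apical membrane, stood at 85.5 against 23.5 CPM (ratio 3.64, 3.43 to 3.86), and FAT3 had a ratio of 1.80. LIX1, whose fly relative binds the cadherin Fat, stood at 120 against 40.3 CPM (2.99, 2.84 to 3.14). NECTIN3, an adherens junction molecule, stood at 193 against 84 CPM (2.30), and the polarity gene CRB1 and the scaffold DLG2 had ratios of 2.33 and 1.94. Of 16 apical junction and polarity genes, all of which could be read, 4 were higher and none lower (median 1.30). Of 21 other cadherin genes read, 5 were higher and PCDH1 was lower (median 0.964).

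The relatives of the genes that chose the cells did not all follow them. Among 9 other Eph receptors read, EPHB1 and EPHB6 were higher (1.58 and 1.60, or 1.37 and 1.27 in cells without contractile UMIs) and EPHA7, EPHA2 and EPHA6 were lower by 2.16-fold, 2.21-fold and 1.80-fold, with a median of 0.818. Of 7 ephrins, EFNB2 was higher (63.9 against 35.0 CPM, ratio 1.83, or 0.900 with no limit on ANXA1, TFPI2 and CTGF) and none was lower. Of 8 other potassium channel genes, KCND2, KCNK2 and KCNH5 were higher (2.42, 2.04 and 2.01), as were KCNIP4 (4.27) and KCNH7 (1.73), which had ratios of 1.43 and 1.35 without neuron-like cells. Among 20 axon guidance genes read, the Slit receptor ROBO2 stood at 139 against 48.8 CPM (2.85), while the netrin receptor UNC5C was 8.55-fold lower (17.8 against 152.5 CPM) and SEMA6A 2.81-fold lower (174 against 488 CPM). In that list 5 genes were higher and 4 lower, and the median was 1.04.

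The high level of some neuronal genes rested on few cells. UMIs of at least 4 of 9 neuron genes were found in 27 members (2.76%, 1.83 to 3.99%) and in 89 other cells (0.790%, 0.635 to 0.972%). STMN2, a neuronal microtubule regulator, stood at 69.5 against 24.9 CPM, but its ratio was 0.82 without these cells. ELAVL3, an RNA-binding protein of neurons, went from 2.18 to 1.41, and the netrin receptor DCC from 2.17 to 0.913. DCX, which is expressed by migrating neurons, remained higher without them (2.57 with and 2.37 without). Of 10 neuron genes read, 4 were higher and 2 lower (median 1.2), and 1 was higher without the neuron-like cells, where 6.07% of all genes read were higher and 5.29% lower. None of 6 proneural genes read was higher or lower (median 1.15).

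Glial genes did not move as a list. EDNRB, the endothelin receptor of progenitors and astrocytes, stood at 38.9 against 6.48 CPM (ratio 6.00, 5.45 to 6.59), and the gap junction gene GJA1 was 2.53-fold lower. Of 12 glial genes only 3 could be read (median 0.778), and OLIG1 and OLIG2 had no UMI in the members.

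The members held less RNA of cell cycle genes, more clearly in the median cell than in pooled levels. The S and G2/M lists together made up a median of 70.8 UMIs per 10000 in the members and 101 in the other cells. Pooled, the S list summed to 3855 against 4019 CPM and the G2/M list to 6516 against 7389 CPM. All kept cells were ordered by the summed UMIs per 10000 of these lists and divided into 3 equal groups. The lowest held 42.3% of the members and 32.6% of the others, and the highest held 24.2% and 34.1%. Within the highest, the median was 169 UMIs per 10000 in the members and 159 in the others. Single genes moved little: 1 of 41 S phase genes and 0 of 52 G2/M genes passed 1.5-fold, with medians of 0.93 and 0.866, and 49 of the 52 G2/M ratios were under 1. CCND1, the G1 cyclin, was 1.60-fold lower (119 against 191 CPM), and the inhibitor CDKN1A was 2.01-fold lower. Some differences were found within each of these groups and others were not. In the lowest, middle and highest group, the HES5 ratio was 3.83, 4.23 and 3.48, the EMX2 ratio 2.41, 2.53 and 2.24, and the ID4 ratio 2.98, 2.97 and 2.97. DLL1 went from 2.23 in the lowest group to 1.48 and 1.32, GLI3 was at 1.38 in the highest group, and the neuronal genes STMN2 and DCC went from 2.52 and 2.56 in the lowest to 0.433 and 0.617 in the highest.

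Stress, metabolic and cell cycle regulator genes lay mostly between the limits. Of 12 stress response genes 0 were higher and 3 lower (median 0.749), of 18 glycolysis genes 1 was higher and 3 lower (0.849), of 14 p53 targets 1 was higher and 2 lower (0.959), and of 14 sterol genes none passed (0.872). In 8 lncRNAs 0 were higher and 2 lower (1.02), and in 16 cyclins and inhibitors 0 and 3 (0.918). Few genes of the lists for other cell types could be read. Among 4 epithelial genes read EPCAM was higher (1.58, or 1.34 in cells without contractile UMIs) and the keratins KRT8 and KRT18 were 2.46-fold and 3.52-fold lower. Both crest and mesenchyme genes read, COL1A2 and PRRX1, were 2.31-fold and 3.70-fold lower, and no endoderm or mesoderm gene could be read. Of the NPC-3 genes, which mark a progenitor cluster of the study, CDH18 was higher (2.85, and 1.83 without neuron-like cells) and RBFOX1 was 1.51-fold lower (ratio 0.887 in cells without contractile UMIs). Around HAR123 itself, SMG6, whose intron holds the enhancer, stood at 142 against 130 CPM (ratio 1.09), SGSM2 was higher (17.8 against 7.94 CPM, ratio 2.24), and HIC1 stood at 0.370 against 0.390 CPM.

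The leading genes outside any list were spread over functions. CREB5, a basic leucine zipper factor at chr7:28299321-28825894, stood at 289 against 45.3 CPM (ratio 6.39, 6.17 to 6.62) with a median of 1.88 UMIs per 10000 in the members, and 93.9% of the other cells lay below that. It was also found in 92.1% of the contractile barcodes, which were deeper. After thinning, a CREB5 UMI was found in 55.6% of the members, 14.1% of the others and 43.0% of the contractile barcodes. ANOS1, an extracellular matrix protein, stood at 77.5 against 14.0 CPM (5.55), SNCAIP, which binds synuclein, at 66.2 against 14.1 CPM (4.69), HS3ST3A1, a heparan sulfate sulfotransferase, at 51.5 against 11.6 CPM (4.44), and ZNF536, a zinc finger repressor, at 63.9 against 15 CPM (4.27). NOS2, an inducible nitric oxide synthase, had a ratio of 5.22 that was 1.03 when the others were weighted over clusters. The unnamed lncRNAs AC092422.1 and AC125613.1 had ratios of 5.07 and 4.68, and SNAP91 and PTCHD1-AS had 4.31 and 4.19.

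A few leading genes rested on very few cells. SGCZ had a ratio of 8.12, but 10 cells held 91.9% of the members' UMIs and the ratio was 1.01 without neuron-like cells. FSTL5 went from 7.52 to 0.521 in the same way. The adenylyl cyclase ADCY2 stood at 49.99 against 3.81 CPM (13.1) with 54.6% of the members' UMIs in 10 cells, and had a ratio of 6.54 without neuron-like cells. SAMD5 had a ratio of 6.69 and of 4.86 without them.

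The members and the genes read had shared the same UMIs, so each cell's UMIs were also divided at random into 2 parts, with members chosen on the first and genes read on the second. Of the members, 796 were chosen both ways. The highest ratios were then those of LINC00461 (14.6), SGCZ (11), ADCY2 (9.79), SAMD5 (7.47), FSTL5 (6.17), CREB5 (6.10), NOS2 (5.83), EDNRB (5.18), ANOS1 (5.06) and EGR1 (4.79), all of which were also among the 20 highest when all UMIs were read. The 5 genes of the sum, high by the choice of cells, had ratios of 11.5 for C1orf61, 16.8 for EPHA3, 6.26 for VEPH1, 5.44 for PCDH19 and 5.76 for KCNQ3. Across cells ordered by the sum in the first part, levels in the second part changed already in bins below the limit. An order made on part of the UMIs is noisy and would smooth a step, so a step at the limit could not be looked for. HES5 went from 91.0 CPM in the lowest bin through 167, 294 and 423 to 567 and 582 CPM in the 2 highest bins. SOX9 went from 56.4 to 160 CPM and EMX2 from 41.3 to 135 CPM from the lowest to the highest bin. SIX3 went down from 369 to 127 CPM, DUSP6 from 269 to 55.6 CPM and L1TD1 from 104 to 10.5 CPM.

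**Figure D4:**
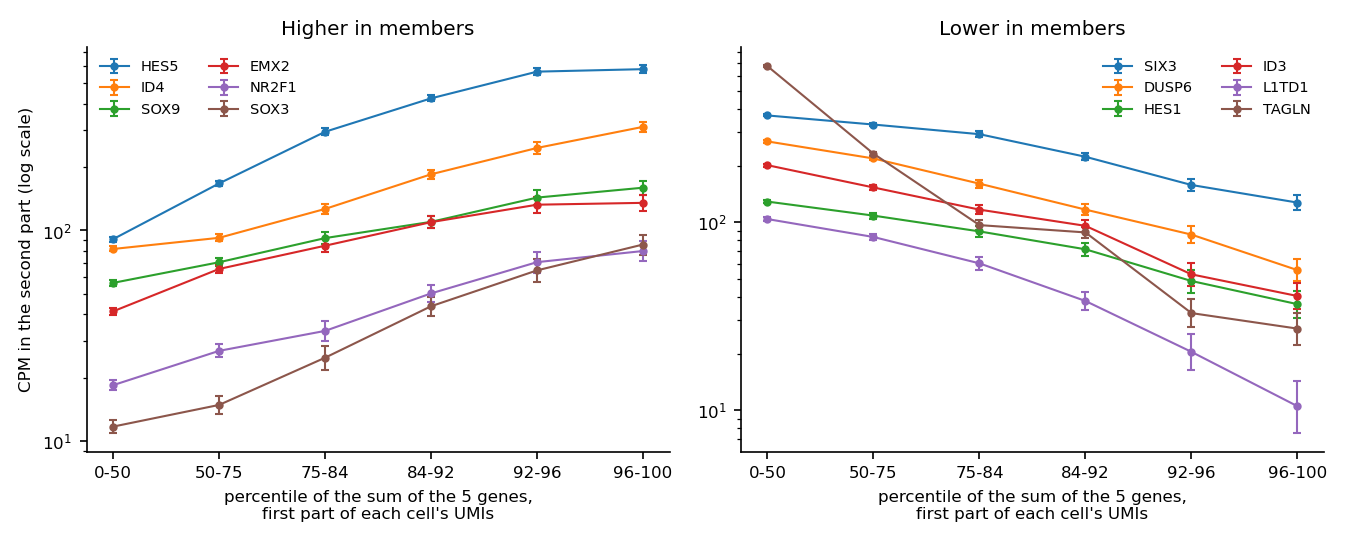
CPM in the second part of each cell's UMIs (log axis) by percentile bin of the 5-gene sum in the first part, for genes that went up and genes that went down along the sum, with 95% counting intervals as bars. The change begins well below the 92nd percentile, where the members start.

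The cells with the next highest sums were close to the members. Against the 979 cells with the next highest sums, the members had ratios of 1.27 for HES5, 1.26 for EMX2, 1.42 for SOX9, 1.47 for ID4 and 1.06 for FABP7, all under 1.5. CREB5 and LINC00461 still had ratios of 2.67 and 2.66, and SIX3 and DUSP6 had 0.64 and 0.59. Against the 757 other cells that were among the highest 8% in EMX2, the members had 1.78 times the HES5, 1.73 times the ID4, 5.20 times the CREB5, 1.29 times the FABP7 and 0.44 times the DUSP6 level, with 0.49 times the EMX2 level.

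Members also differed among themselves. The 27 neuron-like members had 126 CPM of HES5 against 590 CPM in the other 952, and 571 against 185 CPM of EPHA3. Their DCC level was 4528 against 73.6 CPM. Between the 163 members with EMX2 and no SIX3 UMI and the 125 members with SIX3 and no EMX2 UMI, HES5 differed little (ratio 1.03), whereas PAX6 had a ratio of 1.69, CREB5 1.93, FZD5 0.52, VAX1 0.42 and L1TD1 0.26. Between the 490 members with the higher and the 489 with the lower sums, the HES5 ratio was 1.07 and the CREB5 ratio 1.56.

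Clusters were then made without the 5 genes, from the other variable genes of all kept cells, to see where the members lay. Of 9 clusters, cluster 7 with 1122 cells held 591 members, which was 60.4% of the members and 52.7% of the cluster (49.7 to 55.6%). LINC00461, C1orf61, EPHA3, NOS2 and EDNRB led that cluster. Clusters 2 and 4 held 150 and 109 members. Of the cells in these clusters, 74.6% and 97.6% lay in the highest of the 3 groups by cell cycle RNA. Cluster 9, with 105 cells led by SGCZ, FSTL5 and STMN2, held 24 members, and cluster 5 of 1356 cells high in TAGLN held 1. In this clustering, which kept cell cycle genes, the members thus did not form a cluster of their own. Whether they would without those genes was not tested. Inside cluster 7, members differed from the cluster's other cells less than over all kept cells: HES5 had a ratio of 1.24 (607 against 488 CPM) and SOX9 of 1.32, while SOX3 had 1.72, FAT4 2.05, CREB5 2.87 and LINC00461 3.05, and SIX3 had 0.71.

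**Figure D5:**
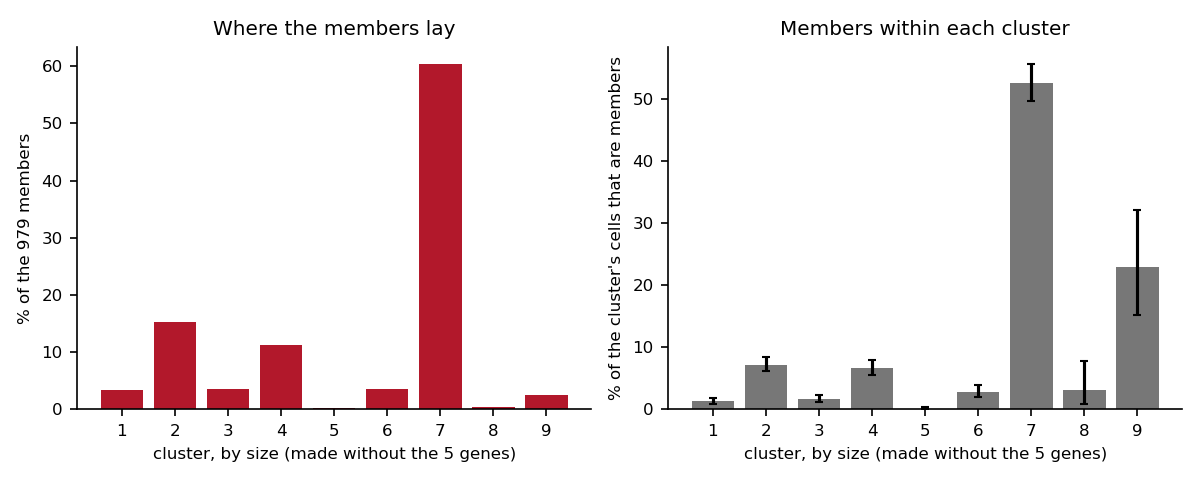
Left, percent of the 979 members in each of 9 clusters made without the 5 genes. Right, percent of each cluster's cells that were members, with exact 95% binomial intervals for counting error only. Cluster 7 holds 60.4% of the members, which make up 52.7% of it.

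Doublet scores were lower in the members. Scrublet, which scores barcodes for likeness to simulated pairs of cells, placed 2.55% of the members and 8.21% of the other cells in the highest 8% of scores, and its own threshold marked 7 members. No barcode was removed on that score.

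Calls of named genes ended most often in 2 of the 22 alternative settings. In cells without contractile UMIs, 41 of the 159 called genes with a value there were no longer past the limit in their direction. Of the genes described above, BMPR1B, DLL1, EPCAM, EPHB1, EPHB6, FABP7, KCNH5, KCNH7, KCNK2, LHX2, NRARP, OTX2, SFRP1, SOX1 and WNT5B were then no longer called higher, and BMP7, CCND1, CDKN1A, COL1A2, EPHA2, FZD1, RBFOX1 and SMAD6 no longer lower. With the others weighted to the members' spread over clusters this held for 68 of 163 genes. The clusters were made from variable genes such as those described here, so this weighting can by itself shrink their ratios. Beside EMX2, FABP7 and OTX2, the higher genes that lost their call there were BMPR1B, CRABP1, DCC, DCX, DLG2, DLL1, ELAVL3, EPCAM, EPHB1, EPHB6, GAS1, GLI3, JAG1, KCND2, KCNH5, KCNH7, KCNK2, LEF1, LFNG, LHX2, NOS2, NR2F2, NRARP, SFRP1, SLC1A2, SOX1, STMN2 and WNT5B. The lower ones were ACTA2, BMP7, CCND1, CDKN1A, EPHA2, EPHA7, FZD1, LGR4, LIN28A, RBFOX1, SMAD6 and SPRY2. In the other 20 alternatives 0 to 21 of the 163 calls ended. The value of 0 came from the limits of 200 and 5000 UMIs and the median ratio set to 1, where ratios stayed the same or nearly so.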

How the data were processed

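One single-cell library (10x 3′ HT v3.1) of H9 hHAR123 cells differentiated into NPCs was analysed. The authors deposited raw counts, the number of UMIs per gene and barcode with no normalization, made with Cell Ranger 7.0.1 on GRCh38 per the submitters' processing notes, which also name Seurat 4.4.0. The study's methods name default parameters, under which this version counts intronic reads too, so spliced and unspliced transcripts cannot be told apart. The annotation release is not given in the sources used here. The file held 14726 barcodes, 33538 genes and 327640709 UMIs. Loading wells could not be separated.

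The limits on genes and the upper limit on mitochondrial share followed the study's methods. Of the barcodes, 13925 passed them, 189 of these fell below the lower mitochondrial limit, and 1497 were left out at the contractile limit. Members, gene lists and neuron and contractile subsets were chosen with earlier results of these data known. Named genes are list genes with at least 1000 UMIs in kept cells, the 20 highest and 15 lowest ratios, and the 10 highest in the second part of the UMIs; MIR9-3HG, FGFR2, HEY1 and other genes below 1000 UMIs are exceptions. Genes linked to sex were left out, and a few listed genes are not reported here.

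Pooled CPM have exact Poisson intervals, ratios exact conditional intervals, and shares exact Clopper-Pearson intervals. Where a group had 0 UMIs, 3 counts over the group set the limit. Thinning to 5000 UMIs left out 2 members, 12 others and 1 contractile barcode. Clusters used 2000 variable genes, 30 principal components, 20 neighbours and Leiden resolution 0.5 (scanpy 1.11.5, igraph 0.11.9, leidenalg 0.10.2, scikit-learn 1.9.0). Scrublet marked 222 barcodes (1.51%), and none was removed except as an alternative. Positions came from GENCODE v44, and upstream and microRNA sequences from RefSeq tables. Tables and figures were made with pandas 2.3.3, scipy 1.17.1, matplotlib 3.10.9 and numpy 2.4.6 in Python 3.11.15. The ratio code was tested on simulated data.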

Additional observations from a re-analysis of the deposited data

How the results depend on the processing

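All values come from 1 library of mixed clones, so no interval covers variation between cultures. No paired analysis was possible because the series had 1 sample and no test. Of 163 called named genes, 145 kept their direction in all 22 alternatives, 82 stayed past 1.5-fold in all of them, and 18 turned direction in at least 1. The limits of 200 and 5000 UMIs left each ratio as it was, and setting the median ratio to 1 left it nearly so. These alternatives ended no call and add nothing to the counts. Of the 22 alternatives, 3 were chosen after seeing the data: without neuron-like cells, only cells without contractile UMIs, and others weighted to the members' spread over clusters.

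The HES5 ratio (3.77) was 3.22 with cells thinned, 3.55 for the highest 4% and 4.01 for the highest 16%, 3.58, 3.64, 3.30 and 4.19 with the sum taken without C1orf61, EPHA3, VEPH1 and KCNQ3, 3.42 as the mean of each cell's CPM, 3.18 as UMIs per cell, 3.34 with others weighted to the members' depth, 5.06 with no contractile limit, 2.36 in cells without contractile UMIs, and 1.71 weighted over clusters. The share of members in the lowest of 3 equal groups by cell cycle RNA (42.3%) was 47.6% for the highest 4%, 46.3% without VEPH1 and 38.2% without KCNQ3. The numbers of genes higher and lower (760 and 628) were 362 and 1701 as UMIs per cell, 1278 and 1010 with no contractile limit, 1438 and 1096 among genes with at least 200 UMIs, 329 and 301 with at least 5000 UMIs, and 212 and 271 weighted over clusters. The number of radial glia genes higher (8) was 5 in the latter 2 settings.

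Named genes that turned direction did so as follows, as ratios. In cells without contractile UMIs CYR61 was 1.65, GAP43 1.17, SMAD6 1.18, STMN4 1.11 and TPM1 1.14. Weighted over clusters CYR61 was 1.12, DLL1 0.974 and PLXNA2 0.978. Chosen without EPHA3, DCC was 0.907, FSTL5 0.153, KCNIP4 0.914, SGCZ 0.215 and STMN2 0.584. Without neuron-like cells DCC was 0.913, FSTL5 0.521 and STMN2 0.818. With no contractile limit EFNB2 was 0.900, NR2F2 0.955, PFKP 0.346, PHLDA3 0.849 and TGFB2 0.277. In that lowest group alone, MOXD1 was 0.996. Apart from the subsets that give their own construction, the cause was not tested.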

Other observations

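Genes known from the ganglionic eminences did not move together: some had a higher level in the members and some were nearly missing from them. GSX2, a homeobox factor of ventral telencephalic progenitors, stood at 5.62 against 0.222 CPM, a ratio of 25.3 (17.7 to 36.6). DLX1 and DLX2 stood at 3.27 against 0.371 CPM (8.81, 6.11 to 12.6) and at 3.46 against 0.344 CPM (10.04, 6.98 to 14.4). All 3 genes lay below the limit of 1000 UMIs, and DLX1 and DLX2 had more of their UMIs in the others (82 and 76) than in the members (53 and 56). A GSX2 UMI was found in 7.15% of the members and 0.382% of the others, and in 3.28%, 0.16% and 0.0668% of members, others and contractile barcodes after thinning. DLX5, DLX6 and DLX6-AS1, which lie at another cluster of the same gene family, went the other way. DLX5 stood at 0.741 against 28.1 CPM and was 37.9-fold lower (21.7 to 73.4), DLX6 was 21.9-fold lower, and DLX6-AS1 had no UMI in the members and was at least 24.9-fold lower. A DLX5 UMI was found after thinning in 0.102% of the members, 9.69% of the others and 18.6% of the contractile barcodes. DLX5 RNA was therefore not limited to neural progenitors here. In cells without contractile UMIs the ratios of GSX2 and DLX5 were 14.2 and 0.0701. NKX2-1, in the same patterning list as GSX2, DLX1 and DLX2, had a UMI in 1.02% of the members and 1.81% of the others.

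Immediate early genes, which respond within minutes to many signals, did not move together. EGR1 stood at 26.7 against 5.65 CPM (ratio 4.72, 4.22 to 5.27) and FOS at 14.1 against 5.38 CPM (2.62). JUN was 5.84-fold lower, IER3 12-fold, ATF3 2.8-fold and DUSP1 1.56-fold lower. Of 7 genes read, 2 were higher and 4 lower, and the median was 0.641. In cells without contractile UMIs 2 of the 7 were higher and 3 lower, and EGR1, JUN and IER3 had ratios of 6.59, 0.46 and 0.29.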
